A study of Mus musculus with 6 samples.

Results

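The opioid peptides and their receptors were examined in medial amygdala (MeA) Kiss1 cells of female mice. The members were the genes with the symbols Penk, Pdyn, Pnoc, Oprm1, Oprd1, Oprk1 and Oprl1 in the authors' table of log2 CPM (read counts scaled to a common library total). All 7 were listed, each as 1 row, among 13886 genes. All mice were KissCre+/Rpl22HA+/+ females, in which Cre made under the Kiss1 gene turns on a hemagglutinin (HA) tag on the ribosomal protein Rpl22, so that ribosomes of cells that have expressed Cre can be pulled down with their mRNA. The ovaries were removed at an age of 8 weeks, and every mouse then had estradiol (E2) for 4 days to drive Cre and 7 days without it. The OVX group (3 libraries) then received no further hormone, and the OVX + Estradiol group (3 libraries, called E2 here) carried an E2 capsule for 5 days. Each library came from MeA micro-punches of 4 mice pooled before the pulldown. The comparison asks whether E2 alters the opioid transcripts that these cells carry on ribosomes. Only pulldown libraries were analysed here, so a level cannot be set against the whole punch, and fewer cells of a type and less RNA per cell cannot be told apart.

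The scaled library size was between 28.1 M and 34.2 M reads. Markers of the labelled cell type and of other cells were looked at first. Both gene models of Kiss1 had E2 libraries above every OVX library, and the model with the higher level averaged 1.75 ± 0.59 log2 CPM without and 3.66 ± 0.19 with E2 (SD, n = 3 each, difference 1.91, SE 0.26, limma adjusted p = 0.00475). All 6 neuron markers were listed, with a summed level of 4211 to 4507 CPM in OVX and 4222 to 4624 CPM in E2 libraries. Markers of glia were present too, with 6 of 6 astrocyte markers (1340 to 1724 CPM in OVX and 1444 to 1750 CPM in E2) and 6 of 6 oligodendrocyte markers (1563 to 2195 and 1711 to 2408 CPM). So were 6 of 6 forebrain excitatory markers (880.3 to 1137 and 668.2 to 871.1 CPM), among them Slc17a7 (Vglut1), which the study counts among the transcripts of Kiss1 cells. Of 7 striatal markers, which belong to neurons rich in opioid peptides, 7 were listed, summing to 136.5 to 190.7 CPM in OVX and 140.5 to 174.6 CPM in E2 libraries. By mean log2 CPM, not scaled for length, the higher Kiss1 model ranked 11038 of 13886 genes. The highest astrocyte (Slc1a2), oligodendrocyte (Mbp) and forebrain excitatory (Slc17a7) markers ranked 92, 119 and 155. By RT-PCR, the study found no Kiss1 or Cck, its positive controls, in pulldowns of mice without Cre, and no Avp, its negative control, in any pulldown. What share of the RNA came from Kiss1 cells was not tested.

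Opioid peptides are cut from large precursor proteins by prohormone convertases and act on receptors coupled to inhibitory G proteins, which open inwardly rectifying potassium channels, close calcium channels and lower cyclic AMP. Penk encodes proenkephalin, Pdyn prodynorphin and Pnoc prepronociceptin. Oprm1, Oprd1, Oprk1 and Oprl1 encode the mu, delta, kappa and nociceptin receptors, which are best known as the targets of beta-endorphin, the enkephalins, the dynorphins and nociceptin. In the arcuate nucleus, kisspeptin neurons make dynorphin together with neurokinin B, and dynorphin acts there on the kappa receptor to slow the activity that drives GnRH release.

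The precursors differ in how many opioid peptides 1 mRNA encodes, which is why their peptide-coding stretches are shown here, from the GENCODE release 21 transcript with the longest coding sequence (GRCm38). Each line gives the 12 bases of the opioid core in capitals, the 6 bases before it, which in every case encode a pair of basic residues where convertases cut, and the 9 bases after it. In Penk and Pdyn the capitals encode tyrosine, glycine, glycine and phenylalanine, the N-terminus shared by the classical opioid peptides, and in Pnoc they encode phenylalanine in place of tyrosine.
Penk core 1: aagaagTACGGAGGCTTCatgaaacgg
Penk core 2: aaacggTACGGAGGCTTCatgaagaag
Penk core 3: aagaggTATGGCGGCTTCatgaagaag
Penk core 4: aagaggTATGGGGGCTTCatgagaagc
Penk core 5: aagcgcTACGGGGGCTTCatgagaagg
Penk core 6: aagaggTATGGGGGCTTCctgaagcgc
Penk core 7: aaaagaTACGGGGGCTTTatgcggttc
Pdyn core 1: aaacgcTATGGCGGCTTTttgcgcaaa
Pdyn core 2: aaacgcTATGGGGGCTTCctgcggcgc
Pdyn core 3: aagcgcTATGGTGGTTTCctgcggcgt
Pnoc core 1: aaaaggTTTGGGGGCTTCaccggggcc
In Penk, core 6 is followed by a leucine codon, as in Leu-enkephalin, and the other cores by a methionine codon, as in Met-enkephalin. All 3 cores of Pdyn are followed by leucine and the core of Pnoc by threonine. Among 13824 listed genes with a complete coding sequence, the classical core occurred in 49 (0.354%), and after a pair of basic codons in 3 of them, which were Penk, Pdyn and Pomc, the precursor of beta-endorphin. More than 1 such core occurred only in Penk and Pdyn. The Pnoc core after a basic pair occurred in 2 genes, Pnoc and Ppm1k.

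**Figure D1:**
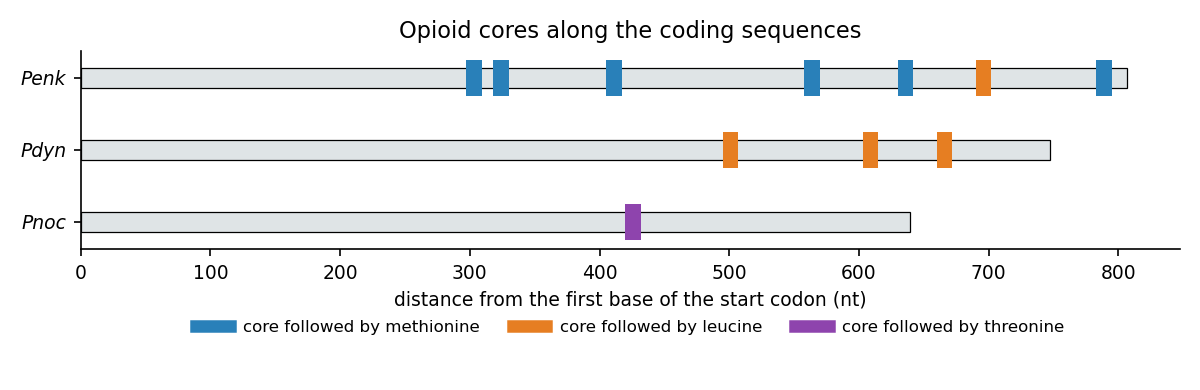
Position of the opioid cores along the coding sequences of Penk (807 nt), Pdyn (747 nt) and Pnoc (639 nt), with the distance in nucleotides from the start codon on the horizontal axis. Coloured blocks are the 12-base cores, by the residue that follows, and they lie between base 298 and base 795 in Penk, between 496 and 672 in Pdyn and between 421 and 432 in Pnoc.

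Levels of different genes were compared as log2 CPM per kilobase (kb) of the longest transcript. On this scale Penk was highest, with a mean of 7.84 over the 6 libraries (rank 188 of 13881 genes with a length). Oprl1 followed with 4.98, Pdyn with 3.49, Pnoc with 2.86, Oprd1 with 1.84, Oprk1 with 1.57 and Oprm1 with -1.17 (rank 13379). Penk was above Oprl1 by 2.85 ± 0.09 (SD, n = 6 libraries) and Oprl1 above Pdyn by 1.495 ± 0.20 (SD, n = 6), on the log2 per kb scale, without overlap between the genes. Pnoc was above Oprd1 by 1.02 ± 0.42 (SD, n = 6) and Oprk1 above Oprm1 by 2.74 ± 0.49 (SD, n = 6), again without overlap.

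The remaining neighbours were closer. Pdyn was above Pnoc by 0.63 ± 0.41 (SD, n = 6), a gap between 0.05 and 1.14 within the libraries, and the ranges of the genes overlapped. Per kb of all exons of a gene, Pdyn was above Pnoc in 5 of 6 libraries. Oprd1 was above Oprk1 by 0.27 ± 0.09 (SD, n = 6), with overlapping ranges but the same order within 6 of 6 libraries. Per kb of all exons this gap was 1.24, since the 5 transcripts of Oprk1 cover 9151 bases and the longest of them 4675.

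**Figure D2:**
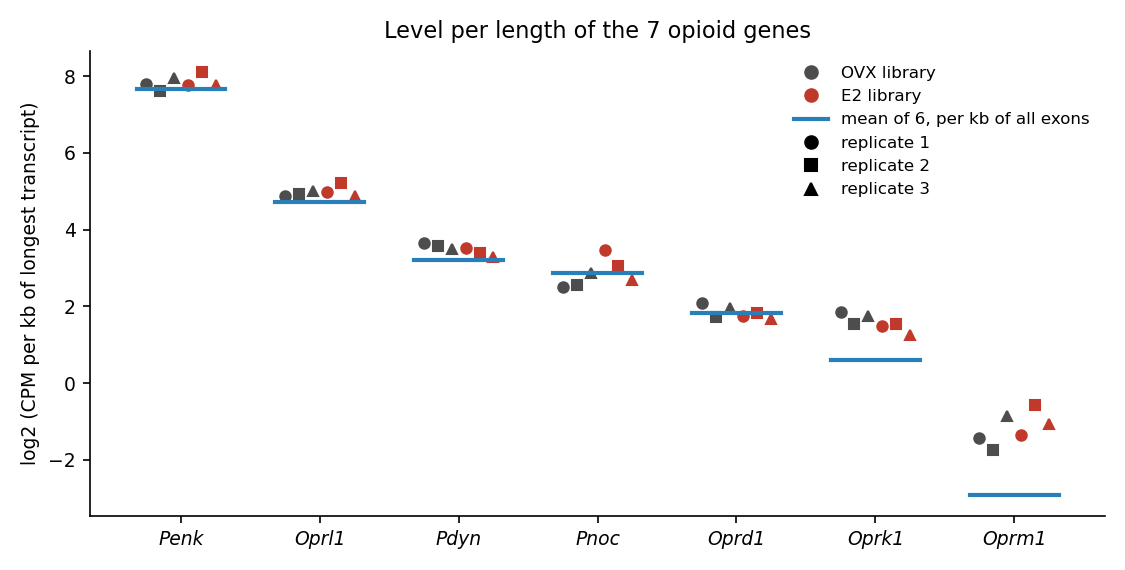
Log2 CPM per kb of the longest transcript (vertical axis) of the 7 opioid genes in 3 OVX (grey) and 3 E2 (red) libraries, with the replicate as the symbol shape and, as a blue line, the mean of 6 libraries per kb of all exons. Penk stands above the other genes in every library and Oprm1 below them, while Pdyn and Pnoc overlap, as do Oprd1 and Oprk1.

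Among the precursors, Penk made up most of the CPM per kb. Its share of the sum of Penk, Pdyn and Pnoc was 90.7% to 93.6% over the 6 libraries, that of Pdyn 3.58% to 5.61% and that of Pnoc 2.37% to 4.54%. Among the receptors, Oprl1 held 78.1% to 83.9% of the CPM per kb of the 4 genes. Oprd1 held 8.04% to 11.3%, Oprk1 6.53% to 9.56% and Oprm1 0.804% to 1.53%. Per kb of all exons the share of Oprk1 was 4.11% to 6.02% and that of Oprm1 0.298% to 0.566%, while Oprl1 held 79.6% to 85.4%. These receptor genes are related in sequence, and their coding sequences were identical at 63.7% (Oprk1 and Oprl1) to 71.7% (Oprm1 and Oprd1) of aligned bases. The longest exact run shared by any pair was 25 bases, against reads of 75 bases before trimming.

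By limma, an adjusted p under 0.05 between E2 and OVX was reached by 0 of the 7 opioid genes and by 0.288% of all 13886 genes (0.23% higher and 0.0576% lower with E2). With voom weights on rebuilt counts 0 of the 7 passed. At an unadjusted p under 0.05 the main test had 2 of the 7 (Pnoc and Oprk1) and voom had 1, where 8.56% of all genes had one (4.21% higher, as Pnoc was, and 4.34% lower, as Oprk1 was). The libraries of the groups did not overlap for 1 of the 7, Oprk1, and for 13.7% of all genes. Differences are given as E2 minus OVX in log2 CPM. Their median over the 7 genes was 0.09, with 4 positive and 3 negative, against 0.00 over all genes, of which 51.1% were positive.

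**Figure D3:**
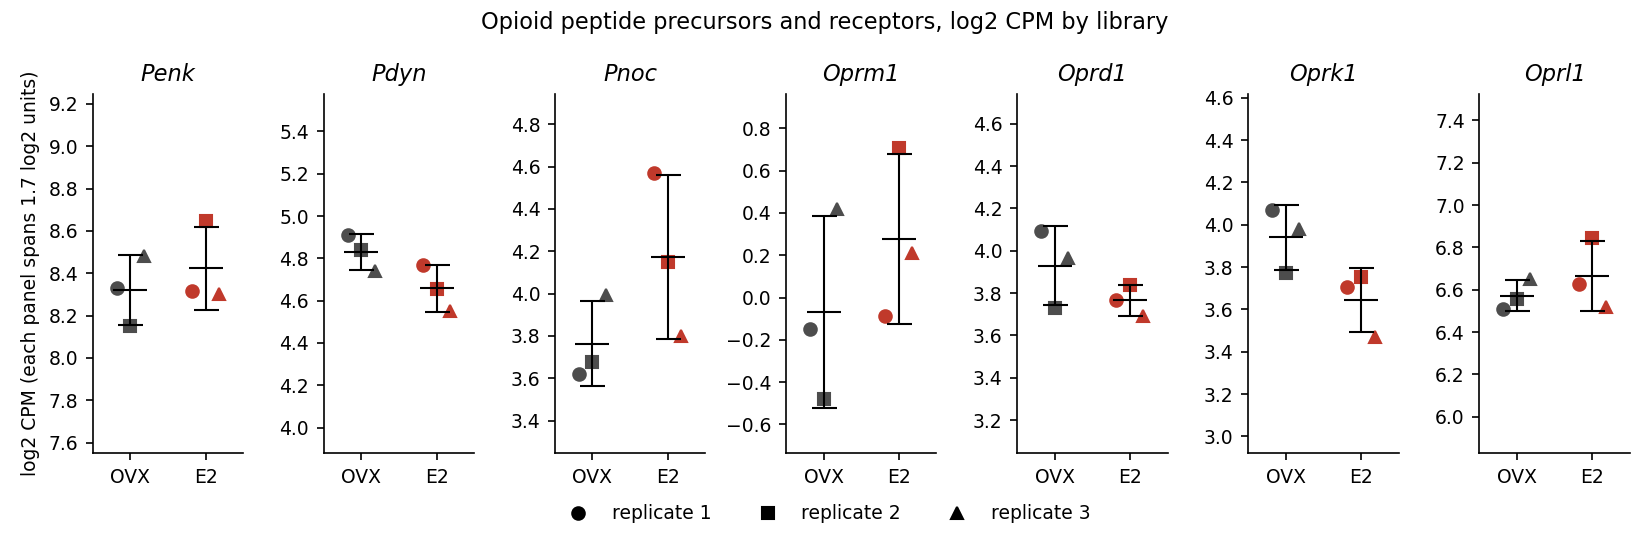
Log2 CPM (vertical axis) of each opioid gene in 3 OVX (grey) and 3 E2 (red) libraries, where symbol shape is the replicate and bars are the mean and SD. The groups overlap in every panel but that of Oprk1, where the E2 libraries lie between 3.47 and 3.75 and the OVX libraries between 3.77 and 4.07.

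Penk (ENSMUSG00000045573, chromosome 4 from 4133531 to 4138819, minus strand), the precursor of the enkephalins, measured 8.33, 8.15 and 8.48 log2 CPM in OVX replicates 1, 2 and 3, against 8.32, 8.65 and 8.30 in E2 replicates 1, 2 and 3. E2 replicate 2 was highest and OVX replicate 2 lowest, and the groups overlapped. OVX libraries averaged 8.32 ± 0.16 and E2 libraries 8.42 ± 0.20 (SD, n = 3 each, difference 0.10, SE 0.09, limma adjusted p = 0.837). The 95% interval of the E2 to OVX ratio was 0.933 to 1.24. Without E2 replicate 2 the difference was -0.01, so its sign rested on that library. Penk ranked 488 of 13886 genes by mean log2 CPM and was backed by 9102 to 13638 rebuilt reads per library. Its exons share 233 bases with A830012C17Rik, a non-coding gene on the opposite strand that is not listed, and the kit did not mark strand, so reads there cannot be told apart.

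Penk varied more between libraries of a group than genes of its level did. Its pooled SD within groups was 0.18 log2 units, against a median of 0.07 for the 501 genes nearest to it in mean log2 CPM. For Pnoc the same values were 0.31 and 0.15 and for Oprl1 0.13 and 0.08. Pdyn (0.10 and 0.12), Oprd1 (0.14 and 0.17), Oprk1 (0.15 and 0.17) and Oprm1 (0.43 and 0.60) lay below the median of genes of like level.

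Pdyn (ENSMUSG00000027400, chromosome 2 from 129686565 to 129699844, minus strand), the precursor of the dynorphins, measured 4.91, 4.84 and 4.74 log2 CPM in the OVX libraries, against 4.77, 4.66 and 4.55 in the E2 libraries. OVX replicates 1 and 2 lay above all E2 libraries and OVX replicate 3 just below E2 replicate 1, so the groups overlapped in 1 pair of libraries. OVX libraries averaged 4.83 ± 0.08 and E2 libraries 4.66 ± 0.11 (SD, n = 3 each, difference -0.17, SE 0.10, limma adjusted p = 0.691). The ratio of E2 to OVX had a 95% interval of 0.767 to 1.03.

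The log2 ratio of Penk to Pdyn, taken within each library in CPM, was 3.42, 3.31 and 3.74 in the OVX libraries, against 3.55, 3.99 and 3.76 in the E2 libraries. It ran from 3.31 to 3.99, and the groups overlapped. Its average was 3.49 ± 0.22 without and 3.77 ± 0.22 with E2 (SD, n = 3 each). The difference of 0.28 had p = 0.2 in a two-sided exact permutation test, where 3 against 3 libraries cannot go below 0.1.

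Pnoc (ENSMUSG00000045731, chromosome 14 from 65400673 to 65425472, minus strand), the precursor of nociceptin, measured 3.62, 3.68 and 3.99 log2 CPM in the OVX libraries, against 4.57, 4.15 and 3.797 in the E2 libraries. E2 replicates 1 and 2 lay above all OVX libraries, but E2 replicate 3 lay below OVX replicate 3. OVX libraries averaged 3.76 ± 0.20 and E2 libraries 4.17 ± 0.39 (SD, n = 3 each, difference 0.41, SE 0.18, limma adjusted p = 0.538, unadjusted p = 0.0367). The E2 to OVX ratio of 1.33 had a 95% interval of 1.02 to 1.73, without adjustment for the number of genes. With no mean-variance trend in the fit, the SE was 0.213 (limma unadjusted p = 0.103). Without E2 replicate 1 the difference was 0.21 (limma adjusted p = 0.953), and without E2 replicate 3 it was 0.60 (limma adjusted p = 0.209).

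Oprl1 (ENSMUSG00000027584, chromosome 2 from 181715016 to 181720985, plus strand), the receptor of nociceptin, measured 6.51, 6.56 and 6.65 log2 CPM in the OVX libraries, against 6.63, 6.85 and 6.52 in the E2 libraries. E2 replicate 2 stood above the rest and the other libraries were interleaved. OVX libraries averaged 6.57 ± 0.07 and E2 libraries 6.66 ± 0.17 (SD, n = 3 each, difference 0.09, SE 0.08, limma adjusted p = 0.824). The 95% interval of the ratio was 0.945 to 1.20. Without E2 replicate 2 the difference was 0.00.

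Oprk1 (ENSMUSG00000025905, chromosome 1 from 5588466 to 5606131, plus strand), the kappa receptor on which dynorphins act, measured 4.07, 3.77 and 3.98 log2 CPM in the OVX libraries, against 3.70, 3.75 and 3.47 in the E2 libraries. Each E2 library was below each OVX library, though E2 replicate 2 and OVX replicate 2 differed by less than the SD of either group. OVX libraries averaged 3.94 ± 0.15 and E2 libraries 3.64 ± 0.15 (SD, n = 3 each, difference -0.30, SE 0.14, limma adjusted p = 0.581, unadjusted p = 0.0478). The E2 to OVX ratio of 0.814 had an unadjusted 95% interval of 0.664 to 0.998. Groups not overlapping and lower with E2 were found for 6.82% of all genes.

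Oprd1 (ENSMUSG00000050511, chromosome 4 from 132110726 to 132144486, minus strand), the delta receptor on which enkephalins act, measured 4.10, 3.73 and 3.97 log2 CPM in the OVX libraries, against 3.77, 3.84 and 3.69 in the E2 libraries. OVX replicates 1 and 3 were highest and OVX replicate 2 lay among the E2 libraries. OVX libraries averaged 3.93 ± 0.19 and E2 libraries 3.77 ± 0.07 (SD, n = 3 each, difference -0.17, SE 0.13, limma adjusted p = 0.802). The 95% interval of the ratio was 0.732 to 1.09.

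Oprm1 (ENSMUSG00000000766, chromosome 10 from 6758506 to 7038198, plus strand), the mu receptor, was near the lower limit of the table. Its log2 CPM was -0.15, -0.48 and 0.42 in the OVX libraries, against -0.09, 0.71 and 0.21 in the E2 libraries, or 0.717 to 1.63 CPM, and it rested on 24 to 55 rebuilt reads per library. The groups overlapped, with averages of -0.07 ± 0.45 without and 0.28 ± 0.40 with E2 (SD, n = 3 each, difference 0.35, SE 0.47, limma adjusted p = 0.906). The 95% interval of the ratio, 0.628 to 2.58, was the widest of the 7 genes. It ranked 13660 of 13886 genes, and 96 of its exonic bases are shared with Ipcef1, a listed gene on the opposite strand with a mean log2 CPM of 6.05, where reads of an unstranded kit cannot be told apart.

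Some of the genes shared their order of libraries. E2 replicate 2 and OVX replicate 3 gave the 2 highest values of Penk, of Oprl1 and of Oprm1, 1 library from each treatment. These were also the libraries with the highest summed neuron markers (4624 and 4507 CPM, against 4211 to 4440 CPM in the others). Of that list, Snap25, Tubb3, Stmn2 and Elavl4 were highest in these 2 libraries, but Syt1 and Rbfox3 were not both so. Syt1 was higher in OVX replicates 1 and 2 (9.98 and 9.93 log2 CPM) than in OVX replicate 3 (9.89) and E2 replicate 2 (9.84). Rbfox3 was highest in OVX replicate 3 but lower in E2 replicate 2 than in E2 replicate 3. OVX replicate 2, which was lowest for Penk and Oprm1, had the lowest neuron sum (4211 CPM) and the highest sums of endothelial and mural (279.8 CPM, against 148.6 to 229.3) and microglial markers (140.1 CPM, against 107.9 to 125.4). Among the microglial markers, Cx3cr1 was highest in E2 replicate 1 and Tmem119 in OVX replicate 1, and the rest in OVX replicate 2. The summed striatal markers were lowest in OVX replicate 3 (136.5 CPM) and highest in OVX replicate 2 (190.7 CPM), with E2 replicate 2 at 149.5 CPM. The highest values of Pdyn, Oprd1 and Oprk1 were those of OVX replicate 1, which also had the highest summed forebrain excitatory markers (1137 CPM), but their lowest values were those of E2 replicate 3, which had the highest such sum of the E2 libraries (871.1 CPM, against 668.2 CPM in E2 replicate 2, the lowest of all). Of the 6 forebrain excitatory markers, 6 had negative differences and 5 of these had an unadjusted p under 0.05, where 4.34% of all genes were lower with such a p and 51.1% had a positive difference. Pnoc was highest in E2 replicates 1 and 2, which also had the highest summed GABA neuron markers (547.1 and 478.3 CPM). Both Pnoc and that sum (394.1 CPM) were lowest in OVX replicate 1. Of that list, only Gad2 had its 2 highest values in E2 replicates 1 and 2. Gad1 and Slc32a1 were highest in E2 replicate 1. Next came OVX replicate 2 for Gad1 (7.51 log2 CPM, against 7.39 in E2 replicate 2) and OVX replicate 3 for Slc32a1 (6.85, against 6.80). Dlx1 was highest in OVX replicate 3 and Dlx6 in E2 replicate 3. The part of any of these markers in the values of the opioid genes was not tested.

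**Figure D4:**
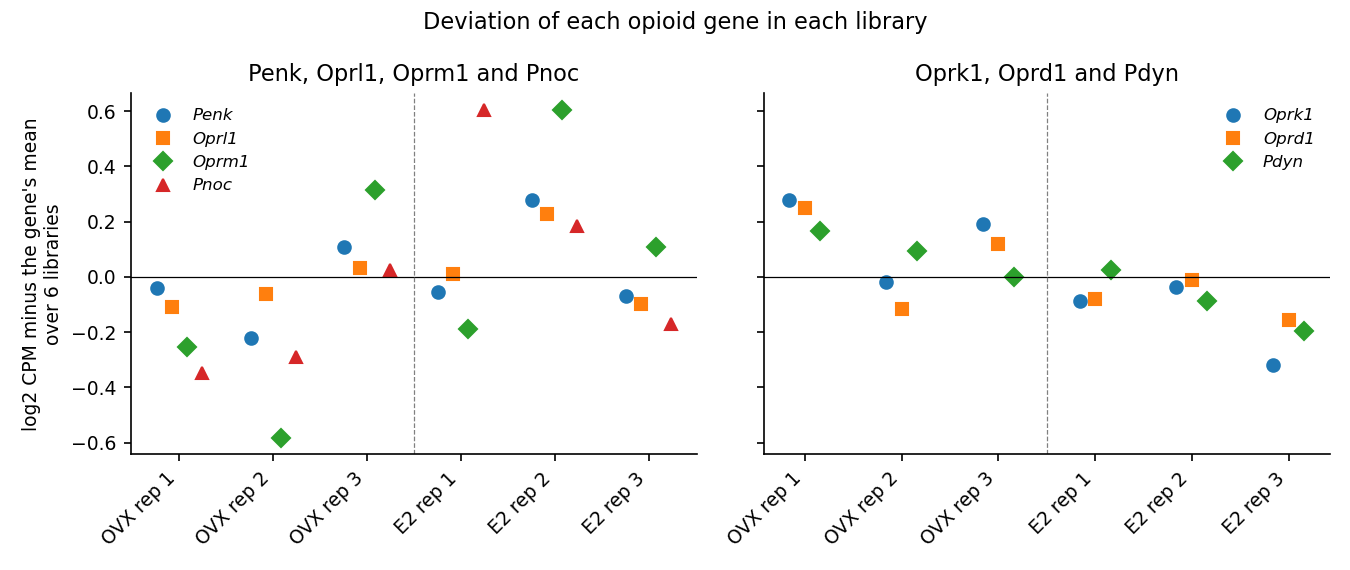
Log2 CPM of each opioid gene minus its own mean over 6 libraries (vertical axis) in each OVX and E2 library (horizontal axis, rep for replicate), with 1 symbol and colour per gene. In E2 replicate 2, Penk (0.28), Oprl1 (0.23) and Oprm1 (0.60) have their highest values, and in OVX replicate 1, Oprk1 (0.28), Oprd1 (0.25) and Pdyn (0.16) have theirs.

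The genes most like each member over the 6 libraries were named by Pearson's r of log2 CPM among 12812 or 12813 other genes, as a description. They were Hspa8 (r = 0.999), Fh1 and Srp54a for Penk, and Mospd1 (0.997), Fam91a1 and Fbxo31 for Pdyn. For Pnoc, Tbc1d23 (0.987) and Gabrg1 were among them. For the receptors they were Vsnl1 (0.995), Nrsn2 and Rpl36a (Oprl1), Khsrp (0.997), Sirpa and Fam76a (Oprk1), Ell3 (0.995), Safb and Rps13 (Oprd1), and Lmnb1 (0.994), Necab2 and Zscan21 (Oprm1). With 6 libraries such values are common, and between 72 genes (Pdyn) and 236 genes (Penk) had an r above 0.9.

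The genes that process, degrade and relay opioid peptides were taken as 6 lists, of which 49 of 50 symbols were listed (Kcnj5, a potassium channel subunit, was not). By limma, 0 of the 49 had an adjusted p under 0.05 in either direction, and 9 (18.4%) had an unadjusted p under 0.05, where 8.56% of all genes did. Of the 9, 3 were higher and 6 lower with E2, against 4.21% and 4.34% of all genes. The lists were chosen with earlier results of these data known, so these shares are a description only. With voom weights the counts were 0 and 9, with the replicate block 0 and 6, without OVX replicate 1 0 and 6, and without E2 replicate 1 0 and 3. Their median difference was 0.00, and 25 of the 49 were positive. The libraries of the groups did not overlap for 8 of the 49, where 13.7% of all genes did not overlap either. The other opioid-related genes included Pomc, at a mean log2 CPM of 0.72 with a difference of 0.00 (SE 0.47, limma adjusted p = 0.999). In that list Ogfr, the opioid growth factor receptor, differed by -0.10 (SE 0.10, limma adjusted p = 0.858).

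All 6 genes of precursor processing were listed, at mean log2 CPM between 6.15 and 10.48. The differences of the 2 main convertases that cut the precursors had opposite signs, and neither passed the threshold. Pcsk1, the gene of prohormone convertase PC1/3, averaged 6.05 ± 0.08 log2 CPM without and 6.26 ± 0.08 with E2 (SD, n = 3 each, difference 0.21, SE 0.07, limma adjusted p = 0.397), and each E2 library was above each OVX library. Pcsk2, the gene of PC2, averaged 8.59 ± 0.01 without and 8.45 ± 0.06 with E2 (SD, n = 3 each), which is a difference of -0.14 (SE 0.05, limma adjusted p = 0.454) with each E2 library below. Cpe, whose product trims the basic residues left by the convertases, differed by 0.01 (SE 0.06, limma adjusted p = 0.992).

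Among the 7 genes of peptide degradation, Ece2, a metallopeptidase of acidic compartments, had the smallest p. It averaged 5.81 ± 0.03 log2 CPM without and 6.11 ± 0.07 with E2 (SD, n = 3 each), with each E2 library above each OVX library (difference 0.29, SE 0.07, limma adjusted p = 0.134). Ace, angiotensin-converting enzyme, which also cleaves enkephalins, differed by -0.30 (SE 0.12, limma adjusted p = 0.487). Mme, the gene of neprilysin and the enkephalinase in the strict sense, was low (mean of 6 libraries 2.14 log2 CPM). Each of its E2 libraries was below each OVX library, by -0.31 on average (SE 0.21, limma adjusted p = 0.763).

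Downstream of the receptors, all 5 inhibitory G protein subunits were listed, with differences from -0.13 for Gnaz (SE 0.07, limma adjusted p = 0.654) to 0.05 for Gnai2 (SE 0.05, limma adjusted p = 0.865). Of the 10 listed effectors 8 had a negative difference, among them Kcnj9, a subunit of the G protein-gated potassium channels, at -0.16 (SE 0.06, limma adjusted p = 0.429) with each E2 library below each OVX library, and Adcy1, an adenylyl cyclase, at -0.24 (SE 0.11, limma adjusted p = 0.563). Kcnj6, another subunit of these channels, had the highest difference of the effectors, 0.08 (SE 0.16, limma adjusted p = 0.943). Of 16 receptor regulators, 9 had a positive and 7 a negative difference. The smallest p in each direction belonged to Rgs14, which speeds the shutdown of inhibitory G proteins (-0.24, SE 0.08, limma adjusted p = 0.347), and to Gprasp2, of a family that sorts receptors for degradation (0.14, SE 0.06, limma adjusted p = 0.584). Wls, whose product binds the mu receptor, differed by -0.22 (SE 0.09, limma adjusted p = 0.474), with each E2 library below each OVX library.

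**Figure D5:**
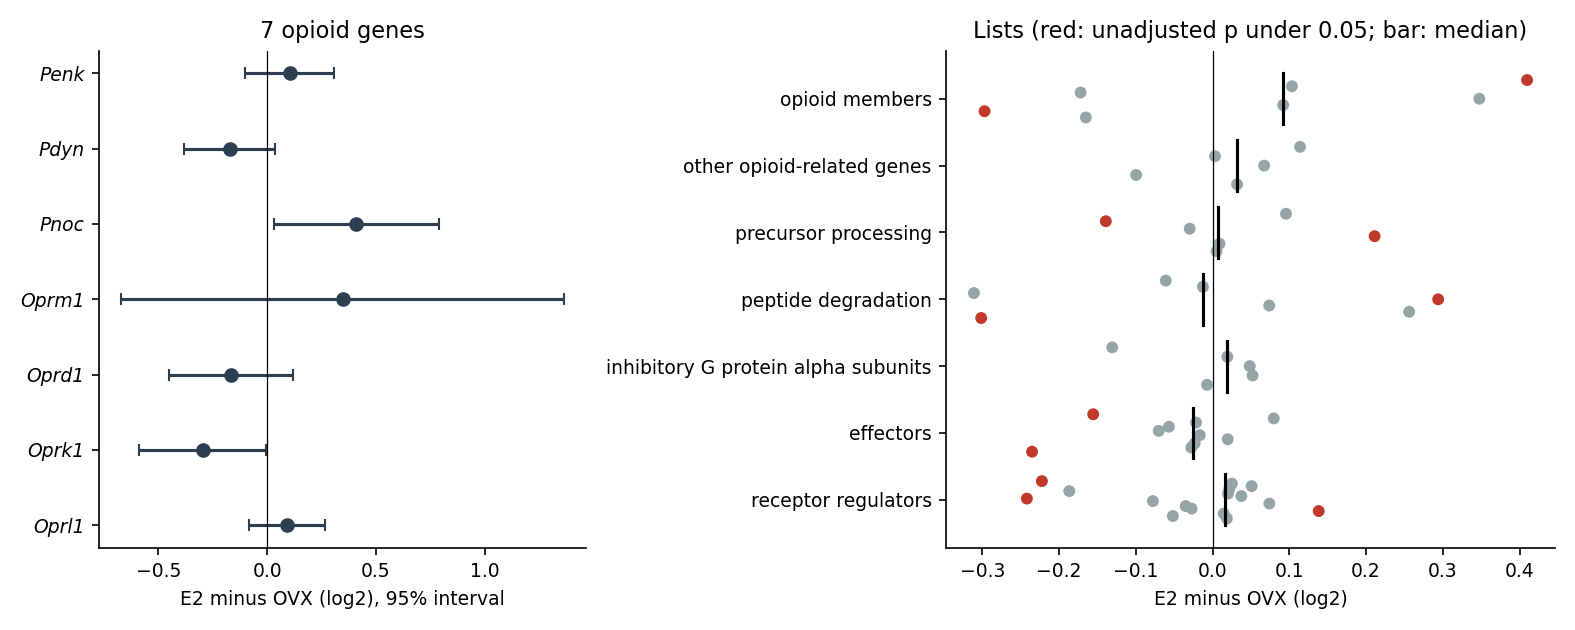
E2 minus OVX in log2 CPM (horizontal axes), on the left for the 7 opioid genes with 95% intervals and on the right for the genes of each list, with the list median as a black bar and genes at an unadjusted p under 0.05 in red. The intervals of Pnoc (0.03 to 0.79) and Oprk1 (-0.59 to -0.00337) leave out 0 before adjustment, and 0 of the genes drawn had an adjusted p under 0.05.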

How the data were processed

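RNA-seq was performed by the authors on HA immunoprecipitates of MeA pools from 3 OVX and 3 E2 groups of mice, with an unstranded polyA kit. Per the labels and the study's methods, reads were trimmed (Trimmomatic 0.38), aligned (STAR 2.6.0a) and quantified with RSEM on GRCm38 with Ensembl release 98. The deposited values, from the voom step of the authors after TMM scaling, are on a log2 CPM scale, and the deposited table of the authors' own comparison (fold changes and p-values) was not used. Read numbers were rebuilt by taking the lowest value of a library as a count of 0 plus 0.5. In all 6 libraries the rebuilt counts of every gene had at most 2 decimals within 0.001, as RSEM estimates do. No interval for counting error was computed, since reads had no molecular identifiers.

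Since counts were not the unit at hand, limma with a trend was used where the study ran voom. E2 and OVX libraries were compared on the log2 CPM with limma 3.58.1 in R 4.3.3 (mean-variance trend, treatment as the only term, two-sided p-values, Benjamini-Hochberg adjustment over 13886 genes, threshold 0.05). The fit was tested on simulated data with independent libraries whose spread followed the mean-variance trend. Such data cannot show whether the trend suits these libraries. Intervals are at 95% confidence. P-values of limma rest on the spread between these pools, with the variance of each gene drawn toward that of genes of like level. With no trend in the fit the SE was 0.133 for Penk and 0.213 for Pnoc, against 0.0944 and 0.177 in the main test. Positions and lengths came from GENCODE mouse release 21, the same assembly but another release, in which 5 listed genes had none. The members and gene lists were chosen with earlier results of these data known. The genes named were the members, per list the smallest p in each direction, genes past the threshold and the 3 genes most like each member with a mean log2 CPM of at least 1. Of these, 2 genes are not reported here. Mme, Cpe, Pomc, Adcy1, Wls and Ppm1k were named after their values were seen. Of the marker lists of other cells, Col1a1 passed the threshold (log2 difference 1.18, SE 0.22, limma adjusted p = 0.0469). The summed CPM in OVX and E2 libraries was 57.43 to 76.14 and 74.15 to 100.8 for the 4 listed fibroblast and meningeal markers, 394.1 to 471.7 and 457.1 to 547.1 for 5 GABA neuron markers and 122.5 to 163.6 and 116.6 to 148.7 for 4 listed central and intercalated amygdala markers.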

Additional observations from a re-analysis of the deposited data

How the results depend on the processing

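Alternatives were other weights (no trend, voom on rebuilt counts with and without sample quality weights, robust empirical Bayes), scaling (median centring, quantile normalization), filters (mean log2 CPM of at least 1, CPM above 1 in all 3 libraries of a group), log2 of CPM plus 1 or plus 0.1, a replicate block and each library left out in turn. The number of opioid genes past the threshold was 0 under all of them, as was that of the 49 pathway genes, with 0 to 2 opioid genes and 3 to 9 pathway genes at an unadjusted p under 0.05. Oprm1 was removed by both filters. The sign of 6 of the 7 differences was the same under each alternative that kept the gene, and that of Penk turned only without E2 replicate 2 (-0.00924). The differences ranged from 0.21 to 0.60 for Pnoc, -0.38 to -0.21 for Oprk1, -0.23 to -0.12 for Pdyn, -0.27 to -0.08 for Oprd1, 0.00 to 0.16 for Oprl1, 0.13 to 0.59 for Oprm1 and -0.01 to 0.18 for Penk, and the lowest adjusted p was 0.209, for Pnoc. The log2 ratio of Penk to Pdyn differed by 0.16 (without E2 replicate 2) to 0.40 (without OVX replicate 3). Over all genes, 40 passed the threshold in the main test, 0 without the trend (1017 at an unadjusted p under 0.05) and 20 (without E2 replicate 2) to 66 (without E2 replicate 3) with 1 library left out. It was 21 without OVX replicate 1 and 26 without E2 replicate 1. The cause was not tested.

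The labels do not say whether equal replicate numbers share a litter or day. Deviations from the group means correlated across genes at -0.02, -0.12 and -0.08 in same-numbered libraries. A correlation over all genes can miss a shared effect on some genes, so these values do not settle whether samples were paired. With the replicate block, 0 opioid genes, 0 pathway genes and 35 genes of all passed the threshold, the differences of the opioid genes were as in the main test, and the Penk to Pdyn ratio differed by 0.28 (p = 0.25 by exact sign flips of 3 pairs, the smallest they can give).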
